A study of Mus musculus with 12 samples.

Results

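Mcam, F11r, Esam, Jam2, Jam3, Pecam1 and Alcam are 7 genes for adhesion receptors of the immunoglobulin superfamily, and their transcripts were followed across 4 conditions of cultured mouse cardiac fibroblasts. The genes are 7 of the 35275 in the count table. They were chosen on measured values of these same libraries: Mcam and F11r because TGF-β1 brought them back up in Smad7-KO cells, and the other 5 for comparison. Values of the Smad7-KO contrasts and of TGF-β1 in Smad7-KO cells are therefore given as a description, with no test. All 7 were among the 15150 genes that passed the filter on low counts.

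The study asked how loss of Smad7, an inhibitory Smad induced by TGF-β, alters fibroblasts at rest and under TGF-β1. Fibroblasts came from the hearts of 12-week-old Smad7 fl/fl mice on a C57BL/6 background and were used at passage 2, so every library carries the floxed allele. Control cells received a GFP adenovirus and Smad7-KO cells a Cre adenovirus, each at 100 MOI for 48 h, as the labels have it, while the methods of the study describe the control virus as empty. Each was then left unstimulated or given TGF-β1 at 10 ng/ml, which makes 4 conditions of 3 libraries. The labels give the stimulation as 2 hours in one field and as 4 hours in the protocol, and the files do not settle which. Cre came from a virus and not from a cell-type promoter, so any floxed cell in the culture could recombine. Every Smad7-KO library had Cre and no control library did, so Smad7 loss and Cre expression cannot be told apart here. Nothing in the labels says that the libraries of a condition came from separate cultures or animals, so p-values measure the spread between these libraries, which may be technical.

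Mcam encodes MCAM (CD146), an adhesion receptor of endothelial cells, pericytes and smooth muscle that binds laminin containing the α4 chain. F11r, Jam2 and Jam3 encode the junctional adhesion molecules JAM-A, JAM-B and JAM-C, which pair across cell contacts and hold the Par polarity complex and ZO-1 on their cytoplasmic tails. Esam encodes a related receptor of endothelial tight junctions and platelets, Pecam1 encodes CD31, which marks endothelium and is also carried by platelets and leukocytes, and Alcam encodes CD166, the partner of CD6 on T cells and of itself on many other cells. TGF-β receptors phosphorylate Smad2 and Smad3, and Smad7 restrains that step.

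The libraries held 19056916 to 25371321 counts each. Smad7 transcript in unstimulated Smad7-KO cells was 39.5% of the control level, between 28.4 and 31.1 CPM (reads normalised to library size) against 71.4 to 77.2. It was 52.7% of the control level with TGF-β1, so part of the reads of the gene remained. By the methods of the study the loxP sites flank only the promoter region and the first exon. Counts per gene cannot tell intact transcript from transcript without that exon. TGF-β1 raised the Smad7 reads 2.61-fold in Smad7-KO cells, to a mean of 76.8 CPM against 74.4 CPM in unstimulated control. Unstimulated control library 2 stood apart from its group, with a TMM scaling factor (trimmed mean of M values, which corrects library size for composition) of 0.919 against 0.980 to 1.04 elsewhere. The biological coefficient of variation was 0.333 in unstimulated control and 0.0529 to 0.138 in the other conditions. Macrophage markers (12 genes) summed to 16755 to 26326 CPM over the libraries and fibroblast markers (10 genes) to 7425 to 11496 CPM, so macrophage transcripts were abundant in cultures labelled as fibroblasts. In bulk RNA, fewer cells of a type and less RNA per cell cannot be told apart, which touches every value that follows. Library sizes for CPM were scaled by TMM, and every ± is an SD over 3 libraries.

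**Figure D1:**
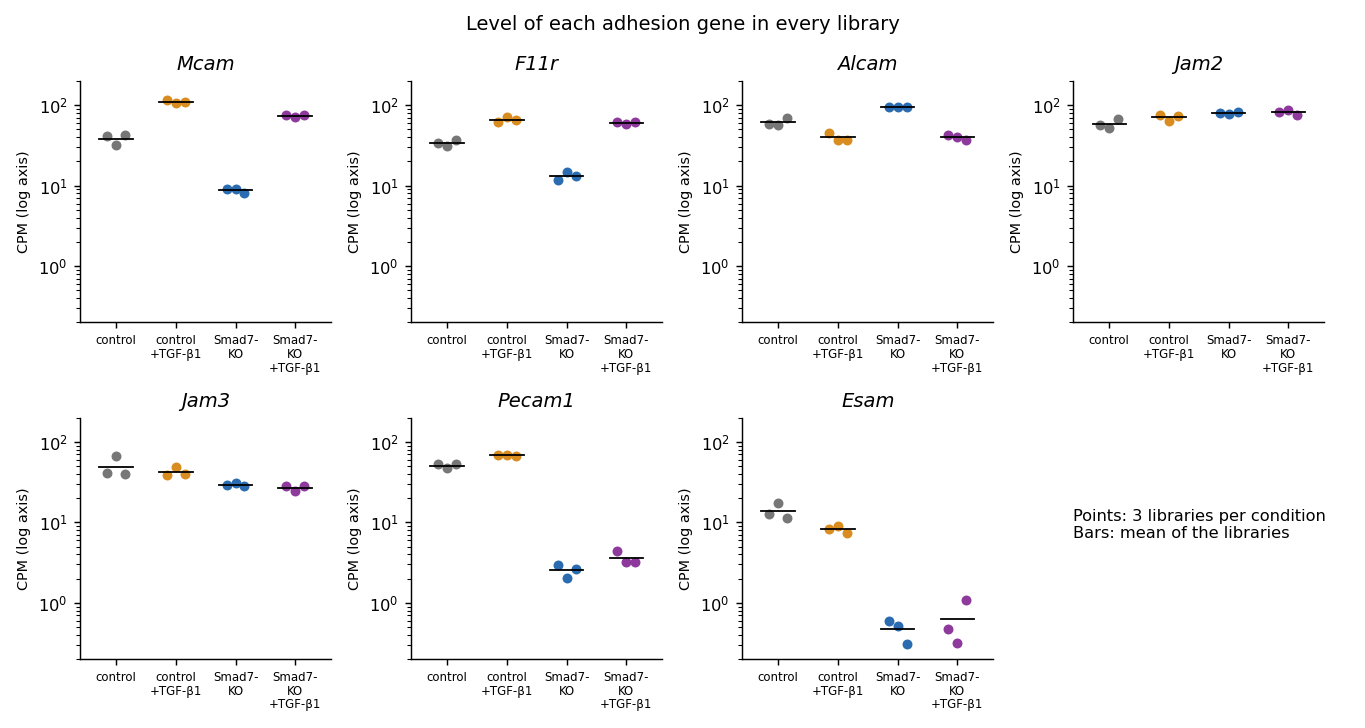
CPM of each gene (log axis) in the 12 libraries, 1 panel a gene; points are libraries and bars the mean of 3. In unstimulated Smad7-KO cells Mcam and F11r lie below every other condition and Alcam lies above every other condition, whereas Pecam1 and Esam lie below control in both Smad7-KO conditions.

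Mcam (ENSMUSG00000032135, chr9:44134469-44142727, plus strand, mm10) was low in resting Smad7-KO cells and stood above the resting control level when these cells were given TGF-β1. It stood at 41.4, 32.1 and 42.1 CPM in unstimulated control libraries 1 to 3, the order kept for every gene, and at 8.97, 9.19 and 8.16 CPM in unstimulated Smad7-KO libraries. With TGF-β1 it stood at 116, 106 and 109 CPM in control and at 74.9, 70.9 and 75.9 CPM in Smad7-KO libraries. None of the 4 conditions overlapped another. The mean in Smad7-KO cells was 22.8% of control without TGF-β1 and 67.0% with it, log2 fold changes of -2.14 (SE 0.12) and -0.58 (SE 0.11). TGF-β1 multiplied the mean 2.86-fold in control and 8.42-fold in Smad7-KO cells.

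F11r (ENSMUSG00000038235, chr1:171437535-171464603, plus strand) followed the same course and ended closer to control. Its unstimulated levels were 34.2, 30.9 and 36.6 CPM in control and 11.9, 14.7 and 13.4 CPM in Smad7-KO libraries. Under TGF-β1 they were 61.4, 70.6 and 66.0 CPM in control and 62.3, 58.7 and 61.5 CPM in Smad7-KO libraries. The resting groups lay apart, and the stimulated groups overlapped. Smad7-KO cells held 39.3% of the control mean at rest and 92.2% under TGF-β1 (log2 fold changes of -1.35, SE 0.11, and -0.12, SE 0.11), with 1.95-fold and 4.57-fold increases by TGF-β1 in control and Smad7-KO cells.

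Over the 12 libraries the gene most like Mcam was F11r and the gene most like F11r was Mcam (Pearson r = 0.99 of log2 CPM, 2507 expressed and variable genes ranked). The next genes like Mcam were Col8a2, Rgs4, Adamtsl2 and Smtnl2 (r from 0.976 to 0.984), and like F11r Smtnl2, Adamtsl2, Fam101b and Col8a2 (r from 0.966 to 0.978). Adamtsl2, which encodes a microfibril-associated secreted glycoprotein, averaged 24.9 CPM in unstimulated control, 115 with TGF-β1, 8.50 in Smad7-KO and 78.4 in Smad7-KO with TGF-β1. Fam101b averaged 48.2, 208, 18.0 and 140 CPM in the same order. These are descriptions over libraries that share conditions and carry no p. Mcam and F11r were chosen for the same course in these libraries, so their likeness repeats that choice.

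The sequence upstream of Mcam and F11r is shown because these genes were chosen for their rise with TGF-β1, whose Smad3 and Smad4 mediators bind AGAC. RefSeq promoter windows on GRCm38.p6, from 250 bases before to 50 after the RefSeq start, were on hand for 3 of the 7 genes, Mcam, F11r and Alcam. The part ahead of the first annotated GENCODE transcript start is printed, 61 bases for Mcam (chr9:44134408-44134468, plus strand) and 224 bases for F11r (chr1:171437311-171437534, plus strand), with capitals where AGAC or its reverse complement GTCT occurs.
Mcam: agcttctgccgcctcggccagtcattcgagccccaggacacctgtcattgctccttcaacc
F11r: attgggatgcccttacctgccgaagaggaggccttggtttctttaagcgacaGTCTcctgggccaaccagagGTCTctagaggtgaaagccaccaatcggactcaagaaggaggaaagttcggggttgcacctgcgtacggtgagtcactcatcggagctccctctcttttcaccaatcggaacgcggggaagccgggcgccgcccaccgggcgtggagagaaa

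Both strands of the full 300-base windows were searched. AGAC occurred 2 times in the F11r window, 0 times in the Mcam window and 2 times in the Alcam window, and 88.0% of 32851 RefSeq promoters held it. GGCGC, a GC-rich Smad motif, had 5 matches in the Mcam window and 2 in each of the others, against 36.9% of promoters with a match. The letters GGCGCC read the same on both strands and give a match on each. The 2 F11r matches are therefore 1 such stretch, and 2 of the 5 Mcam matches likewise share 1 stretch. The GC box GGGCGG occurred 5 times in the Mcam window, 1 time in F11r and 2 times in Alcam (35.7% of promoters), and some of these matches overlap GGCGC matches. In the Mcam window every GGCGC and GGGCGG match lies past the first GENCODE start, outside the printed 61 bases. The AP-1 motif TGANTCA occurred 1 time in F11r only (7.81% of promoters), and CACCTG 1 time in each (20.2%). CAGAC was in none of the 3 windows and in 49.6% of promoters. A match describes these letters and is no binding site, and no match says only that the letters are not in the window.

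Alcam (ENSMUSG00000022636, chr16:52248996-52454074, minus strand) ran the opposite way. It measured 58.9, 56.1 and 69.1 CPM in unstimulated control and 93.9, 95.5 and 94.8 CPM in unstimulated Smad7-KO libraries. With TGF-β1 the values were 45.5, 37.5 and 37.4 CPM in control and 42.3, 40.4 and 37.3 CPM in Smad7-KO libraries. The Smad7-KO libraries lay above control at rest and overlapped them under TGF-β1, 154% and 99.6% of the control means. In control cells TGF-β1 lowered Alcam, which fell by 0.61 on the log2 scale (SE 0.11, adjusted p = 0.00480 by the edgeR quasi-likelihood test, adjusted over all genes tested, lower in 3 of 3 libraries). In Smad7-KO cells the log2 fold change with TGF-β1 was -1.24 (SE 0.11). Over the 12 libraries Alcam had r = -0.95 with Mcam and r = -0.97 with F11r, again with no p.

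Jam2 (ENSMUSG00000053062, chr16:84774123-84825928, plus strand) varied least of the 7 between conditions. Its levels were 57.1, 52.2 and 66.9 CPM in unstimulated control and 79.3, 77.7 and 81.6 CPM in unstimulated Smad7-KO libraries. Under TGF-β1 they were 75.7, 63.1 and 72.9 CPM in control and 81.4, 88.5 and 76.0 CPM in Smad7-KO libraries. Jam2 was thus slightly higher in Smad7-KO cells, without overlap, at 135% of control at rest and 116% under TGF-β1. With TGF-β1 in control cells the log2 fold change was 0.26 (SE 0.12, adjusted p = 0.223 by edgeR), and the libraries overlapped.

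Jam3 (ENSMUSG00000031990, chr9:27097385-27155421, minus strand) was lower in Smad7-KO cells at rest and with TGF-β1. It read 41.4, 66.8 and 39.6 CPM in unstimulated control and 29.2, 30.6 and 28.5 CPM in unstimulated Smad7-KO libraries. With TGF-β1 it read 39.2, 49.5 and 39.5 CPM in control and 28.1, 24.4 and 28.5 CPM in Smad7-KO libraries. Every Smad7-KO library lay below every control library of the same stimulation, and the means were 59.7% and 63.2% of control. The highest value came from unstimulated control library 2, the library that stood apart, and without it the log2 fold change at rest was -0.46 in place of -0.74 (SE 0.18). TGF-β1 in control cells gave a log2 fold change of -0.20 (SE 0.18, adjusted p = 0.575 by edgeR), which was 0.077 without that library.

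Thus JAM-A, JAM-B and JAM-C transcripts did not move as a set: in resting Smad7-KO cells F11r was lower, Jam2 higher and Jam3 lower, and under TGF-β1 Jam3 alone of the 3 lay below control without overlap.

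Pecam1 (ENSMUSG00000020717, chr11:106654217-106750628, minus strand) was low in Smad7-KO cells and stayed low with TGF-β1. It stood at 52.7, 47.5 and 52.6 CPM in unstimulated control and at 2.92, 2.06 and 2.60 CPM in unstimulated Smad7-KO libraries. With TGF-β1 it stood at 69.3, 68.4 and 67.7 CPM in control and at 4.47, 3.26 and 3.21 CPM in Smad7-KO libraries. Smad7-KO means were 4.96% and 5.32% of control, log2 fold changes of -4.33 (SE 0.16) and -4.23 (SE 0.16). In control cells TGF-β1 gave a log2 fold change of 0.43 (SE 0.13, adjusted p = 0.0795 by edgeR), with all 3 stimulated libraries above the unstimulated ones. With the DESeq2 test that adjusted p was 0.0122.

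Esam (ENSMUSG00000001946, chr9:37528078-37538319, plus strand) was likewise low in Smad7-KO cells, from a lower control level. Control libraries held 283, 301 and 267 reads at rest and 207, 222 and 152 with TGF-β1. Smad7-KO libraries held 12, 12 and 7 reads at rest and 12, 7 and 23 with TGF-β1. Mean levels were 13.7 ± 3.10 CPM against 0.471 ± 0.15 CPM at rest, and 8.26 ± 0.827 against 0.627 ± 0.405 CPM with TGF-β1. The Smad7-KO means were 3.43% and 7.59% of control. In control cells all 3 stimulated libraries lay below the unstimulated ones, with a log2 fold change of -0.73 (SE 0.27) that did not pass the test (adjusted p = 0.149 by edgeR). In Smad7-KO cells the 2 groups overlapped, and so few reads leave the TGF-β1 response there poorly measured (log2 fold change 0.40, SE 0.44).

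**Figure D2:**
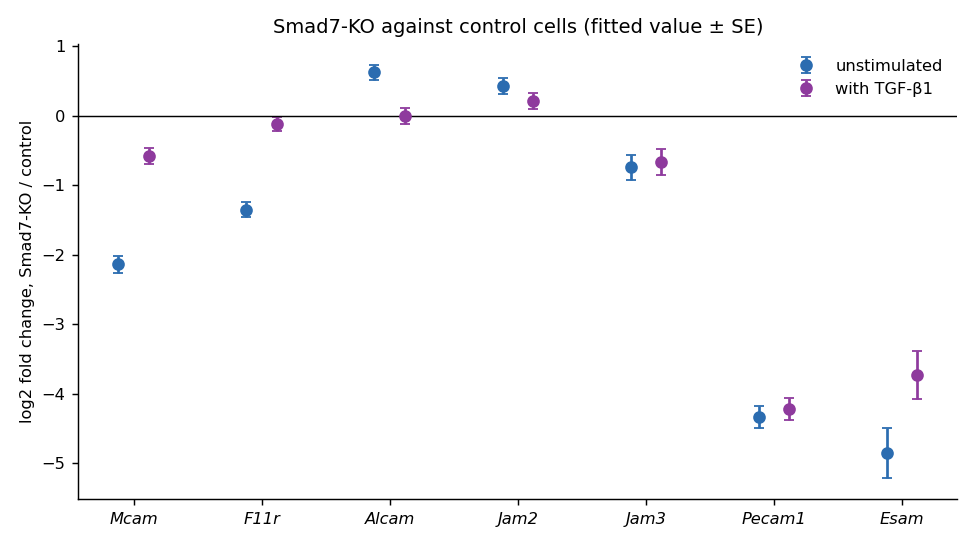
Fitted log2 fold change of Smad7-KO against control (± SE) for each gene, unstimulated (blue) and with TGF-β1 (purple); 3 libraries a condition. With TGF-β1, Mcam goes from -2.14 to -0.58, F11r from -1.35 to -0.12 and Alcam from 0.63 to -0.01, while Pecam1 stays near -4.33 and -4.23.

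Set side by side, the difference between Smad7-KO and control cells closed under TGF-β1 for F11r and Alcam and narrowed for Mcam, whereas for Pecam1 and Jam3 it changed little. For Esam it went from -4.86 to -3.73, so Esam still lay far below control, with few Smad7-KO reads behind both values. The interaction, which is the log2 fold change under TGF-β1 minus that at rest, was 1.56 (SE 0.16) for Mcam and 1.23 (SE 0.15) for F11r. It was -0.63 for Alcam, -0.22 for Jam2, 0.08 for Jam3, 0.11 for Pecam1 and 1.13 for Esam (SE 0.52). At an adjusted p of 0.05 or less, 7 of the 7 genes were called at rest, 2 higher and 5 lower, where 25.8% of all genes tested were called, 12.1% higher and 13.7% lower. With TGF-β1 the count was 4, all lower, where 13.0% of all genes were called, 5.72% higher and 7.23% lower. The interaction called 2 of the 7 and 0.0198% of all genes. Since these contrasts chose the genes, nothing is read from the counts. With 1 library left out at a time the interaction called 0 to 2 of the genes, and 10 of the 12 such fits called fewer than 2. Groups did not overlap in 41.3% of all genes at rest and in 44.9% with TGF-β1.

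In TGF-β1-stimulated against unstimulated control cells 3 of the 7 were called, Mcam and F11r higher and Alcam lower, where 8.37% of all genes were, 5.04% higher and 3.33% lower, and 19.8% did not overlap. In Smad7-KO cells the same 3 were called, where 10.2% of all genes were, 5.33% higher and 4.90% lower, and 39.0% did not overlap. Mcam and F11r were chosen for their rise with TGF-β1 in Smad7-KO cells, so nothing is read from that count or from their calls in control cells. Without unstimulated control library 3, Esam, Jam2 and Pecam1 passed in control cells as well (adjusted p = 0.0421, 0.0346 and 0.0404 by edgeR), and fitted on only the 6 libraries of the comparison Alcam did not (adjusted p = 0.110). The comparisons share libraries, so they are no independent evidence of one another.

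**Figure D3:**
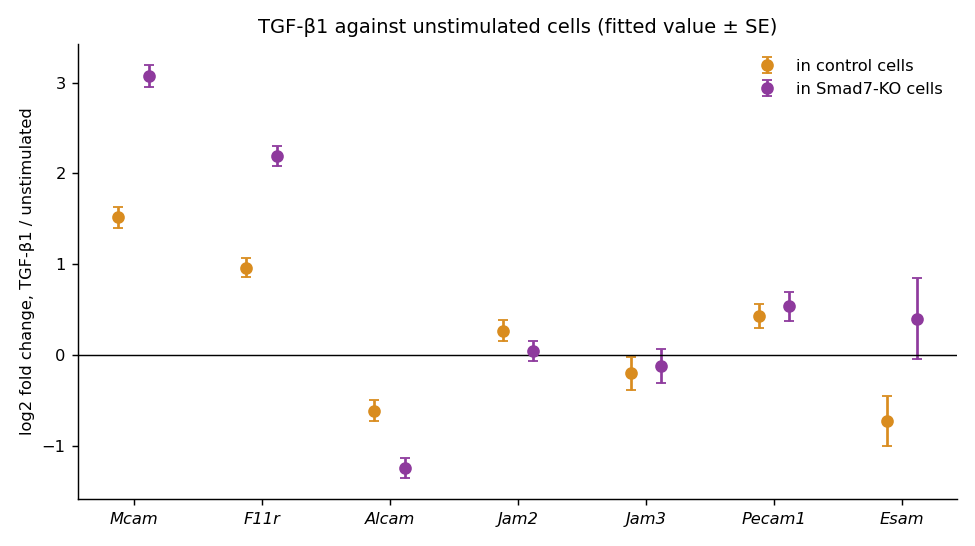
Fitted log2 fold change of TGF-β1 against unstimulated cells (± SE) for each gene, in control (orange) and in Smad7-KO cells (purple); 3 libraries a condition. Mcam and F11r stand at 1.52 and 0.96 in control and at 3.07 and 2.19 in Smad7-KO cells, Alcam stands at -0.61 and -1.24, and the other 4 lie between -0.73 and 0.54.

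Levels can be compared between genes per length, as FPKM. In unstimulated control Jam3 was highest at 24.5 ± 5.77 FPKM and Esam lowest at 7.24 ± 1.12 FPKM. Pecam1, F11r, Jam2, Mcam and Alcam lay between, from 14.8 down to 10.1 FPKM, each overlapping its neighbour in that order. TGF-β1 put Mcam first in control cells at 37.4 ± 2.06 FPKM, ahead of F11r at 26.6 ± 1.71 without overlap. In unstimulated Smad7-KO cells the order was Jam2 (18.4 FPKM), Alcam (15.8), Jam3 (15.1), F11r (5.33), Mcam (2.96), Pecam1 (0.741) and Esam (0.255), and no neighbours overlapped. In Smad7-KO cells with TGF-β1 Mcam and F11r were again first, at 24.3 and 23.8 FPKM, and overlapped each other.

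The genes most like Pecam1 over the 12 libraries were Edn1 (endothelin-1), Smoc1, Aqp1 (aquaporin-1), Cdh5 (VE-cadherin) and Atp1b1, with r from 0.986 to 0.996. Those most like Esam were Gm10020, Emcn (endomucin), Echdc2, Procr (endothelial protein C receptor) and Bcam, with r from 0.983 to 0.992. Pecam1 and Esam had r = 0.96 with each other, while Pecam1 had r = 0.57 with Mcam and 0.49 with F11r.

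Of 20 endothelial markers 18 were tested, and in unstimulated Smad7-KO cells 14 fell, 1 rose and 3 did not pass. That is 83.3% called, against 25.8% of all genes. Robo4 and Sox18, counted among the 14, averaged 1.78 CPM each in control and 0.152 and 0.105 CPM in Smad7-KO cells. They passed the filter on low counts through the control libraries. Cdh5 fell from 34.3 to 3.06 CPM, Emcn from 152 to 4.67 and Tie1 from 16.2 to 0.632, while Vwf rose from 14.8 to 30.4 CPM and Kdr, Ptprb and Tek did not pass. Summed over the list, control libraries held 825 to 859 CPM at rest and 840 to 892 with TGF-β1, and Smad7-KO libraries 332 to 359 and 368 to 385. The endothelial sum thus stayed low in Smad7-KO cells under TGF-β1, as Pecam1 and Esam did and Mcam and F11r did not. Eng, Cd34 and Emcn made up most of that sum, at 329, 177 and 152 CPM in unstimulated control. No marker of the list was at 0 in every library of a condition, except Cldn5 in Smad7-KO with TGF-β1.

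Markers of other cell types were counted in the same way, at rest, where 25.8% of all genes tested were called, 12.1% higher and 13.7% lower. Of 14 pericyte and smooth muscle markers tested, 5 fell and 0 rose in unstimulated Smad7-KO cells, among them Cspg4 (NG2), Tagln and Acta2. That list summed to 1247 to 1997 CPM in unstimulated control and 981 to 1091 in unstimulated Smad7-KO, and to 1551 to 2008 and 1326 to 1402 with TGF-β1. Its sum was lower in Smad7-KO than in control libraries at rest and under TGF-β1, and in Smad7-KO cells it was higher with TGF-β1. Acta2, Tagln and Pdgfrb made up most of it, at 613, 702 and 145 CPM in unstimulated control. Under TGF-β1 2 of the 14 fell and 0 rose in Smad7-KO against control cells (14.3% called, against 13.0% of all genes). Acta2, Tagln and Pdgfrb did not pass there (adjusted p = 0.215, 0.186 and 0.898 by edgeR). Platelet markers fell in 3 and rose in 1 of 4 tested, with sums of 80.9 to 240 CPM against 70.8 to 76.5 at rest. Macrophage markers rose in 7 and fell in 0 of 12 tested, with sums of 16836 to 26312 CPM against 23967 to 26326 at rest. Epithelial and mesothelial markers fell in 5 and rose in 0 of 8 tested, and their sums were 283 to 314 CPM against 176 to 212. Fibroblast markers rose in 2 and fell in 2 of 10 tested, lymphatic markers fell in 1 of 3, and cardiomyocyte markers fell in 2 of 4. The part of these shifts in the levels of the 7 genes was not tested.

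**Figure D4:**
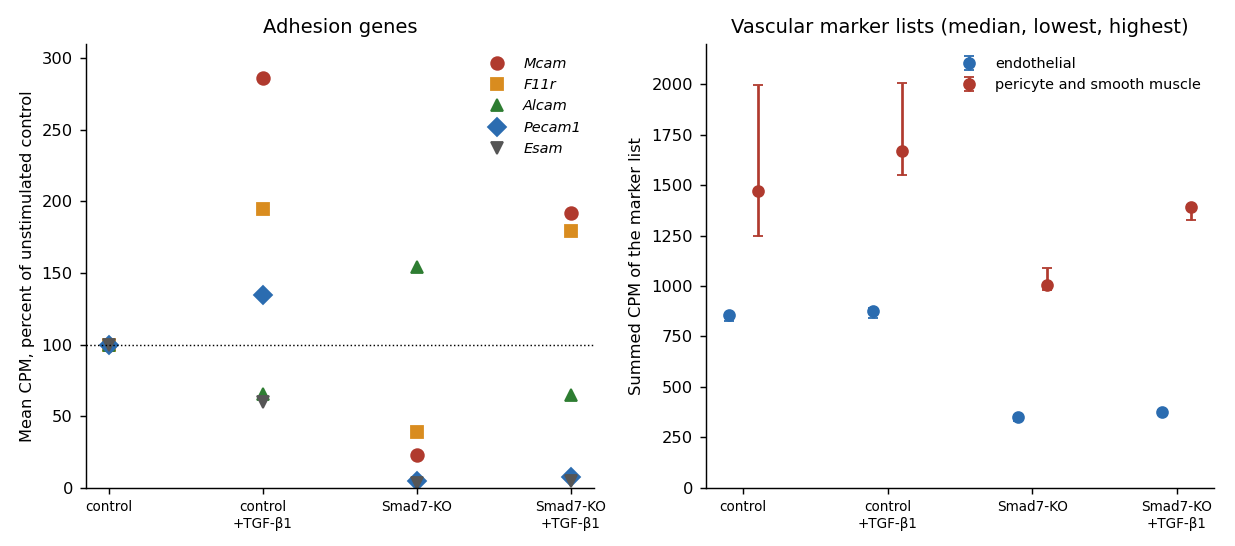
Left, mean CPM of 5 genes in each condition as a percent of unstimulated control. Right, summed CPM of the endothelial (blue) and the pericyte and smooth muscle (red) marker lists, with the median and range of 3 libraries. In Smad7-KO cells with TGF-β1, Mcam (192%) and F11r (179%) stand above the resting control level, and Pecam1 (7.15%), Esam (4.57%) and the endothelial sum (368 to 385 CPM) stay low.

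Gene length moved with the direction of the Smad7-KO difference. With all tested genes split into 3 groups by length, 13.5% of the called genes in the shortest group, 45.5% in the middle group and 79.2% in the longest group were higher in unstimulated Smad7-KO cells. Jam2 (4370 bases) and Alcam (6036 bases), the members that were higher, are in the longest group, and Esam (1865) and Jam3 (1969) in the shortest. With the length trend removed, the log2 fold change at rest was 0.28 for Alcam and 0.25 for Jam2, -0.54 for Jam3, -2.13 for Mcam, -1.28 for F11r, -4.40 for Pecam1 and -4.62 for Esam. TGF-β1 in control cells still gave Alcam a log2 fold change of -0.80 after that step.

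Relatives and partners of these receptors were taken from 4 lists of 97 genes, 81 of them tested, and compared across all conditions by edgeR with adjustment over all genes. In unstimulated Smad7-KO cells 15 rose and 8 fell of 81 (28.4% called, against 25.8% of all genes), and with TGF-β1 11 rose and 8 fell (23.5%, against 13.0%). TGF-β1 raised 12 and lowered 5 in control cells (21.0%, against 8.37%), and raised 12 and lowered 6 in Smad7-KO cells (22.2%, against 10.2%). The interaction called 0 of 81 with edgeR and 0 with DESeq2, and 3 had an unadjusted p under 0.05. Fitted on only the 6 libraries of each comparison these counts were 9, 31, 2 and 38 in the order given.

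In the JAM, nectin and related family 3 rose and 2 fell of 13 tested in unstimulated Smad7-KO cells (38.5% called, against 25.8% of all genes). Vsig2, among those that fell, passed the filter through the control libraries and held 0 or 1 read in Smad7-KO libraries. Cadm1, a nectin-like adhesion molecule, rose by 0.78 on the log2 scale (SE 0.12, adjusted p = 0.00198), from 79.1 to 136 CPM, and by 0.73 with TGF-β1. Clmp, a relative of the coxsackievirus and adenovirus receptor, rose by 0.61 (adjusted p = 0.00322), and Nectin4 by 0.58 (adjusted p = 0.0357). Nectin3, which binds nectins across cell contacts, fell by 0.63 (SE 0.11, adjusted p = 0.00240), and with TGF-β1 by 0.37 (adjusted p = 0.0381). Like Mcam and F11r, Nectin3 rose with TGF-β1 in control (0.45, adjusted p = 0.0183) and in Smad7-KO cells (0.71, adjusted p = 0.000910), with smaller fold changes. Pvr, the poliovirus receptor, rose by 0.87 in control cells given TGF-β1 (adjusted p = 0.000795) and was lower in Smad7-KO than in control cells under TGF-β1 (log2 fold change -0.52, adjusted p = 0.0164). With TGF-β1 Nectin1 rose by 0.62 in control and by 0.67 in Smad7-KO cells, Nectin2 fell in control cells by 0.53, and Cxadr, the coxsackievirus and adenovirus receptor itself, fell in Smad7-KO cells by 0.94.

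Among other adhesion molecules 3 rose, 3 fell and 6 did not pass of 12 tested in unstimulated Smad7-KO cells, where 25.8% of all genes were called. Bcam, the Lutheran laminin receptor and close relative of Mcam, fell from 62.9 to 23.0 CPM (log2 fold change -1.45, SE 0.14, adjusted p = 0.000100) and did not return with TGF-β1, at 52.8 CPM in control against 20.8 in Smad7-KO. The neural adhesion molecule Nrcam rose by 1.25 at rest (adjusted p = 0.000814) and by 1.33 with TGF-β1, Ceacam1 by 1.03 and 1.05, and L1cam by 1.18 at rest (adjusted p = 0.0164). Ncam1 rose with TGF-β1 by 1.22 in control and by 1.08 in Smad7-KO cells, and Mpzl1, a docking protein for the phosphatase SHP2, by 0.44 in Smad7-KO cells.

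Of 28 scaffold and tight junction genes tested, which include the proteins that JAM tails bind, 2 rose and 2 fell in unstimulated Smad7-KO cells and 24 did not pass. That is 14.3% called, against 25.8% of all genes. Cgnl1 (paracingulin) fell from 63.1 ± 31.6 to 30.3 ± 4.01 CPM (log2 fold change -1.06, adjusted p = 0.0336) and Pard6g, a Par polarity subunit, by 0.49 (adjusted p = 0.0428). For each of these genes the Smad7-KO and control libraries overlapped. Tjp3 (ZO-3) rose by 0.98 and Afdn (afadin, which links nectins to actin) by 0.70. Pard6g rose with TGF-β1 by 0.63 in control cells and by 0.64 in Smad7-KO cells, whereas Magi3 fell by 0.87 and 0.94.

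Of 28 ligands, receptors and effectors tested 7 rose and 1 fell in unstimulated Smad7-KO cells (28.6% called, against 25.8% of all genes). Cd38, a ligand of CD31, rose from 24.1 to 52.0 CPM (log2 fold change 1.11, SE 0.092, adjusted p = 2.58e-05), and St6gal1, which sialylates CD31, by 0.99 (adjusted p = 0.000451), in the same cultures in which Pecam1 stood at 4.96% of control. Itgam and Itgb2, the chains of Mac-1, which binds JAM-C, rose by 1.36 and 0.71, and Itga4, of the α4β1 integrin that binds JAM-B, by 1.29 (adjusted p = 0.0424). Itgam is also among the macrophage markers. Itgal, the LFA-1 chain that binds JAM-A, rose with TGF-β1 from 14.0 to 49.5 CPM in control and from 16.4 to 49.96 in Smad7-KO cells (log2 fold changes 1.81 and 1.61, adjusted p = 0.000147 and 0.000258), in the libraries in which F11r was also higher. Wnt5a, which can signal through MCAM, rose with TGF-β1 by 1.07 and 1.18, Pdgfrb, a partner receptor of MCAM in pericytes, by 0.92 and 0.79, and Lgals3, a galectin that binds MCAM, fell by 1.05 and 0.83.

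**Figure D5:**
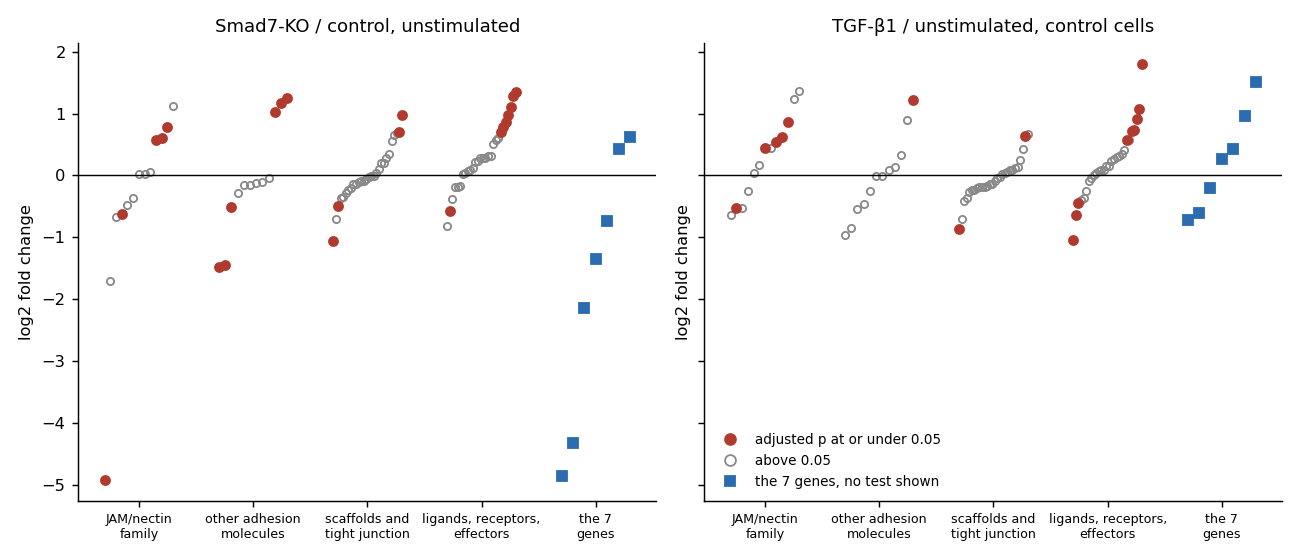
Log2 fold change of each tested partner gene by list, and of the 7 genes (blue squares, no test shown), for Smad7-KO against control at rest (left) and TGF-β1 against unstimulated control cells (right); filled red points have an adjusted p of 0.05 or less. On the left, the 7 genes run from -4.86 to 0.63, the JAM and nectin family reaches -4.92 in 1 gene with few reads, and the lowest values of the other 3 lists are -1.49, -1.06 and -0.82.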

How the data were processed

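RNA from 12 libraries (4 conditions of 3) was sequenced after poly(A) selection by the authors, as 100-base paired-end reads. The deposited gene counts are raw reads per gene. The submitters' processing notes name CASAVA, TopHat2 2.0, Cufflinks 2.1.1, HTSeq 0.6.1, mm10 and GRCm38.p6 without saying which made the counts, and whether counting used strand is not given in the sources used here. The deposited FPKM are these counts over gene length and library size, within 0.1 percent for all 35275 genes.

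Counts of all 12 libraries were fitted in edgeR 4.0.16 (R 4.3.3) with 1 group per condition, TMM scaling, filterByExpr with a minimum count of 10 and the quasi-likelihood test, with Benjamini-Hochberg adjustment over 15150 genes and a threshold of 0.05. The fit was tested on simulated counts with known fold changes. Depth was 19056916 to 25371321 counts a library, which gives 7 to 301 reads for Esam and 181 or more for Mcam.

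The members and gene lists were chosen with earlier results of these data known. Named were the 7 genes, Smad7, up to 4 called partners per list and comparison by size of change (average log2 CPM of 1 or more), and the 5 genes most like Mcam, F11r, Pecam1 and Esam. Of 97 partner genes 96 were matched by Ensembl ID, and Cd99 was not matched. Alternatives were DESeq2 1.42.0 and its size factors, no filter, only the libraries of a comparison, limma 3.58.1 on log2(FPKM + 1) and log2(FPKM + 0.1), a replicate block, removal of the length trend, and leaving out each library.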

Additional observations from a re-analysis of the deposited data

Results flagged for a closer look

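The gap between Smad7-KO and control cells in Mcam and F11r was not the same with TGF-β1 as without it. The difference, the log2 fold change under TGF-β1 minus that at rest, was 1.56 for Mcam and 1.23 for F11r. These are the values on which the genes were chosen, so they are a description and carry no p here. Refits of the same libraries kept the sign, which that choice makes no support. With 1 library left out the interaction was called in 3 of 12 fits for Mcam and 2 of 12 for F11r. In the other settings it was called in 4 of 7 for each. The Mcam antisense neighbour Gm10687, a lincRNA that overlaps Mcam by 17 bases and was picked after its values were seen, averaged 0.935 CPM in unstimulated control, 1.85 with TGF-β1, 0.103 in Smad7-KO and 0.755 in Smad7-KO with TGF-β1. Since the strand used in counting is not given, reads of the antisense gene and of Mcam in the overlap cannot be told apart.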

How the results depend on the processing

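Of 693 recomputed fold changes of the 7 genes 676 kept their direction, and the 17 that reversed were 0.22 or smaller in size. Alcam in Smad7-KO against control cells with TGF-β1 became 0.022 with DESeq2 size factors, 0.022 with DESeq2 and 0.00031 with only the 6 libraries compared, and ranged from -0.053 to 0.096 over fits that left out 1 library. Leave-one-out values ranged from -0.34 to 0.077 for TGF-β1 on Jam3 in control cells, from -0.22 to 0.71 on Esam and -0.014 to 0.093 on Jam2 in Smad7-KO cells, and from -0.19 to 0.21 for Jam3 and -0.070 to 0.22 for Pecam1 in the interaction. By limma the Jam3 and Pecam1 interactions were -0.016 and -0.20 on log2(FPKM + 1) and -0.021 and -0.018 on log2(FPKM + 0.1). The number of the 7 genes called by the interaction, 2 in the report, was 0 by limma with either pseudocount and 0 to 2 with 1 library left out. TGF-β1 in control cells called 5 by limma on log2(FPKM + 1) and 3 to 6 with 1 library left out. Counts of partner genes became 9, 31, 2 and 38 with only the libraries compared, in the order of the report, and 37 and 34 for Smad7-KO at rest and with TGF-β1 once the length trend was removed. With 1 library left out these counts ran from 15 to 37, 11 to 29, 10 to 27 and 11 to 26. The cause of these shifts was not tested. Fewer libraries were fitted only in the leave-one-out and comparison-only fits. The comparison-only fit was not run for the interaction, which uses every library.

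The labels do not say whether libraries of the same number were paired. Of 18 same-numbered pairs 1 had deviations from the group means correlated above 0.1. It was control library 2 without and with TGF-β1 (r = 0.52). Pairs of unlike number ran from -0.56 to 0.55, so these values cannot settle whether libraries were paired. With a replicate block the interaction called 0 of the 7 genes, and the other counts stayed within 1.5 times. Depth limits Esam most, with 7 to 23 reads in Smad7-KO libraries.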

Other observations

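Vsig2, a gene for another receptor of the JAM-like family that was picked here after its values were seen, starts 935 bases beyond the end of Esam on the same strand (chr9:37539255-37544205, mm10). It held 12, 13 and 14 reads in unstimulated control libraries and 13, 9 and 6 in control libraries with TGF-β1. In Smad7-KO libraries it held 0, 1 and 0 reads at rest and 0, 0 and 1 with TGF-β1. Vsig2 was thus near the limit of detection in control and at 0 or 1 read in Smad7-KO cells. It passed the filter on low counts through the control libraries, so no p is given for it. It is counted among the partner genes that fell in Smad7-KO cells at rest and with TGF-β1. Esam stood at 3.43% and 7.59% of its control level in the same cells.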
